A study of Bos taurus with 129 samples.

Results

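The genes described here are expressed in the bovine conceptus on day 16 of pregnancy and are close to absent from the maternal tissues around it. They were chosen from the messenger RNA counts of the second of 2 experiments, named E2 in the sample labels. A gene name was taken when its mean was at least 20 CPM (a gene's share of all counts in a library, scaled to a common total) in normal (N) conceptuses and under 1 CPM in each of N endometrium, N corpus luteum and N peripheral blood mononuclear cells (PBMC). Names that begin with IFN, PAG or TKDP, the prefixes of the best known secreted products of ruminant trophoblast, were left out. Of 35158 gene names, 6245 reached 20 CPM in N conceptuses, and 57 met all the limits. A further 10 met them but were left out by name, among them PAGE4, which shares only its first letters with the pregnancy-associated glycoproteins.

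At this stage the ruminant conceptus is a free-floating, elongating filament. Most of its cells are trophectoderm, which secretes interferon tau (the signal that keeps the corpus luteum alive), pregnancy-associated glycoproteins and trophoblast Kunitz domain proteins (TKDP). A small embryonic disc (epiblast) and an inner layer of hypoblast complete it, and the conceptus later attaches to the uterine epithelium through its trophectoderm.

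The cows were lactating, multiparous Holsteins, synchronized with the Ovsynch hormone program and bred by timed insemination. The labels place the samples in normal (N), embryo mortality (EM) and non-pregnant (NP) groups, and conceptuses were recovered on day 16. In the methods, an E2 conceptus was N when translucent and elongated, and EM when it was pink, red or opaque, restricted in elongation, or both, whereas for the first experiment, E1, the group rests on the labels alone. E2 gave 6 EM and 9 N conceptus libraries and E1 gave 4 EM and 8 N, and nothing in the labels ties the libraries of different tissues to the same cow. The EM and N groups of E2 therefore differ in the look and length of the conceptus by definition, after the same treatment of the cows.

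The members fell on marker lists of more than 1 cell layer. They held 5 genes of a list of 25 trophectoderm transcription factors (MSX2, FOXI3, DLX3, ASCL2 and CDX2). They also held 3 of 20 genes of an epiblast list (SALL4, LIN28A and ZFP42) and 1 of 29 of hypoblast and yolk sac endoderm (FETUB). No other gene of the epiblast list reached 20 CPM in N conceptuses, the next being TDGF1 with 16.7 CPM. POU5F1, NANOG and SOX2 had 3.48, 0.458 and 0.0945 CPM. Which layer expressed SALL4, LIN28A and ZFP42 was not tested. The limits separated conceptus from maternal tissue and nothing finer, so the members are called conceptus-restricted genes below. They held 19 names that are only LOC numbers. Of the 57, 52 were found in the RefSeq table of the assembly ARS-UCD2.0, where 50 were protein coding and 2 were pseudogenes, and 34 were matched to 1 row of the E1 tables.

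Values near the limits are given as a description. MYL7, the atrial myosin light chain, with a mean of 20.7 CPM, TNFRSF9, known as a costimulatory receptor of T cells, with 22.7 CPM, and CDX2 with 22.98 CPM were the lowest N conceptus means inside. MYBPC3 with 17.5 CPM, ABCB11 with 16.9 CPM and LOC404061 with 16.7 CPM lay just outside. On the maternal side DLX3 with 0.988 CPM, TGM1 with 0.965 CPM and CLDN23 with 0.947 CPM were just inside as their highest maternal mean, and TFAP2A with 1.02 CPM, PLCXD1 with 1.02 CPM and ENTPD3 with 1.03 CPM were just outside.

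The conceptus-restricted genes took 3.03% to 7.40% of all counts in the 9 N conceptuses of E2. Their summed level was 56746 ± 15091 CPM (SD, n = 9). Nearly all of this came from 4 genes, which took 92.2% of the summed mean, and LOC618696 alone took 49.8%. LOC618696 has no described product in the E2 table, and neither has LOC112446741, the second. LOC112446828, the third, is described as flocculation protein FLO11-like. LOC616860, the fourth, is named PINLYP in RefSeq, after a phospholipase A2 inhibitor and Ly6/PLAUR domain. No role in the conceptus is given for these 4 in the annotation used.

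Several members lay near each other in the RefSeq order of ARS-UCD2.0. Chromosome 13 held 7 of the 51 members placed on the assembly, 13.7% of them against 3.48% of the 36428 RefSeq genes placed, a description and not a test. LOC618696 was the direct neighbour of LOC107133059, annotated as trophoblast Kunitz domain protein 1, with 0 genes between them. LOC404105, annotated with the same name, lay 3 genes away from LOC618696. LOC616039, described as serum basic protease inhibitor-like, lay 11 genes beyond LOC107133059. The Kunitz domain is a protease inhibitor fold, and these genes remained in the list because their names do not begin with TKDP. On chromosome 7, LOC101905257 and LOC101905194, both hepatitis A virus cellular receptor 1-like, had 1 gene between them. Genes with near-identical copies can share reads, so the split of counts among the Kunitz genes, and between other copies below, is uncertain. The median exon length of the matched members was 1338 bases against 1363 bases over all E1 genes.

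In EM conceptuses of E2 the summed level of the 57 genes was 6192 ± 8849 CPM (SD, n = 6), with a median of 2107 CPM. The EM libraries spread over a wide range. The sum was 22555 CPM in S55, 10071 CPM in S61 and 3216 CPM in S51. It was 998 CPM in S53, 260 CPM in S58 and 50.4 CPM in S49. All 6 lay below the lowest N library, S56, with 30288 CPM, and the groups did not overlap. In these bulk samples, fewer conceptus cells and less RNA per cell cannot be told apart. The N libraries of E2 chose the members, so their difference from EM in that experiment is given as a description.

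**Figure D1:**
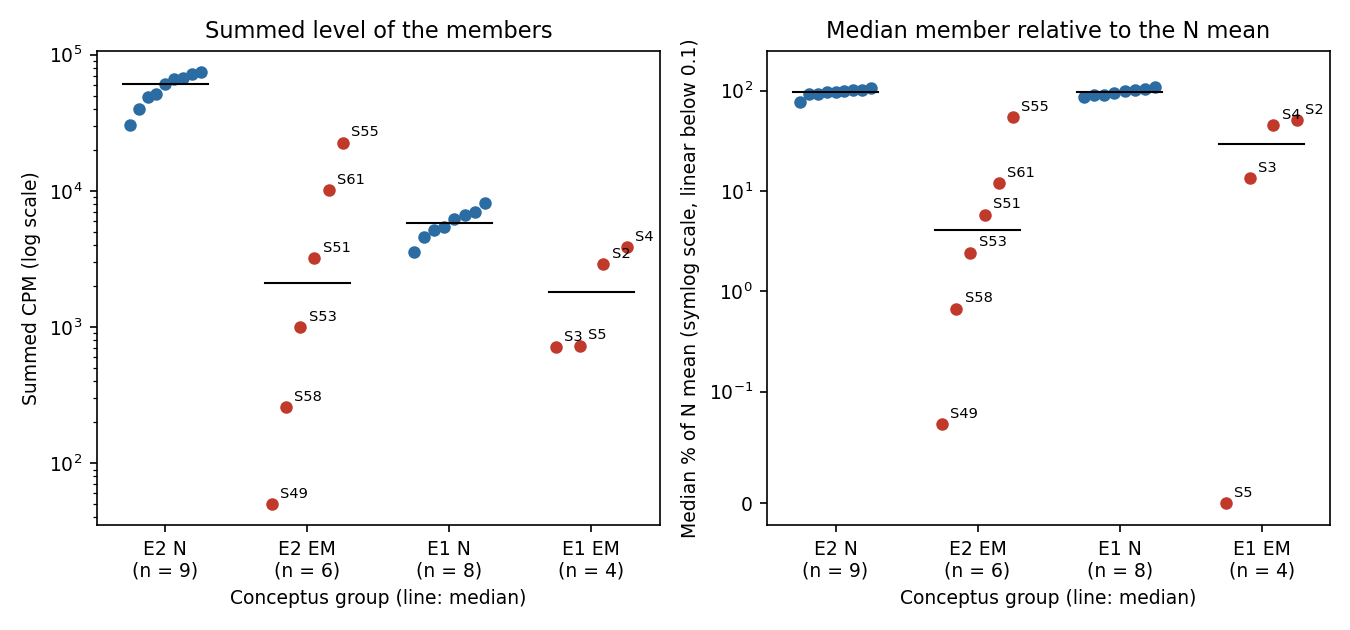
Left, summed CPM of the conceptus-restricted genes in each conceptus library (57 genes in E2, 34 matched genes in E1), on a log axis, and right, the median member as a percentage of its N mean, on an axis that is linear below 0.1, with 1 point per library (N blue, EM red) and a line at the group median. In E2 the 6 EM libraries run from 50.4 to 22555 CPM, all below the 9 N libraries, and in E1 the EM libraries S2, S3 and S5 lie below every N sum.

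The fall was shared by almost all members within a library. The median member stood at 54.1% of its N mean in S55, 12.03% in S61 and 5.81% in S51, and at 2.43% in S53, 0.671% in S58 and 0.0709% in S49. S55 was the highest EM library for 56 of the 57 genes, and S61 was the second for 49. S49 was the lowest, ties included, for 46, and 28 genes followed the full order of the 6 libraries. In S55 the quartiles of the members' percentages were 41.002% and 60.7%, and 31 members lay within the range of the N libraries. In S61, by contrast, 3 members lay in that range. In S49 45 members were under 1 CPM and 18 had no count in a library of 19011200 counts, where 3 counts stand for 0.158 CPM. S49 and S58 were still among the deeper EM libraries of E2, which held from 10532188 to 19458387 counts.

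Against the highest maternal N library of the same experiment, 56 members were higher in S55, 57 in S61 and 52 in S51. The number was 44 in S53, 29 in S58 and 13 in S49. These counts fell in the order of the summed levels except between S55 and S61. Of the 12 members that reached 1 CPM in S49, LOC618696 had 9.89 CPM, LOC112446741 and LOC613549 had 4.58 CPM each, and CLDN23 had 4.31 CPM. LOC613549 is named VGLL1 in RefSeq, a partner of TEAD transcription factors, and was chosen after its values were seen. In that library LOC613549 was the member that kept the largest share of its N mean, at 9.25%. Of these 12 genes, 8 had a mean of at least 0.5 CPM in EM endometrium, against 9 of the other 45 members.

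**Figure D2:**
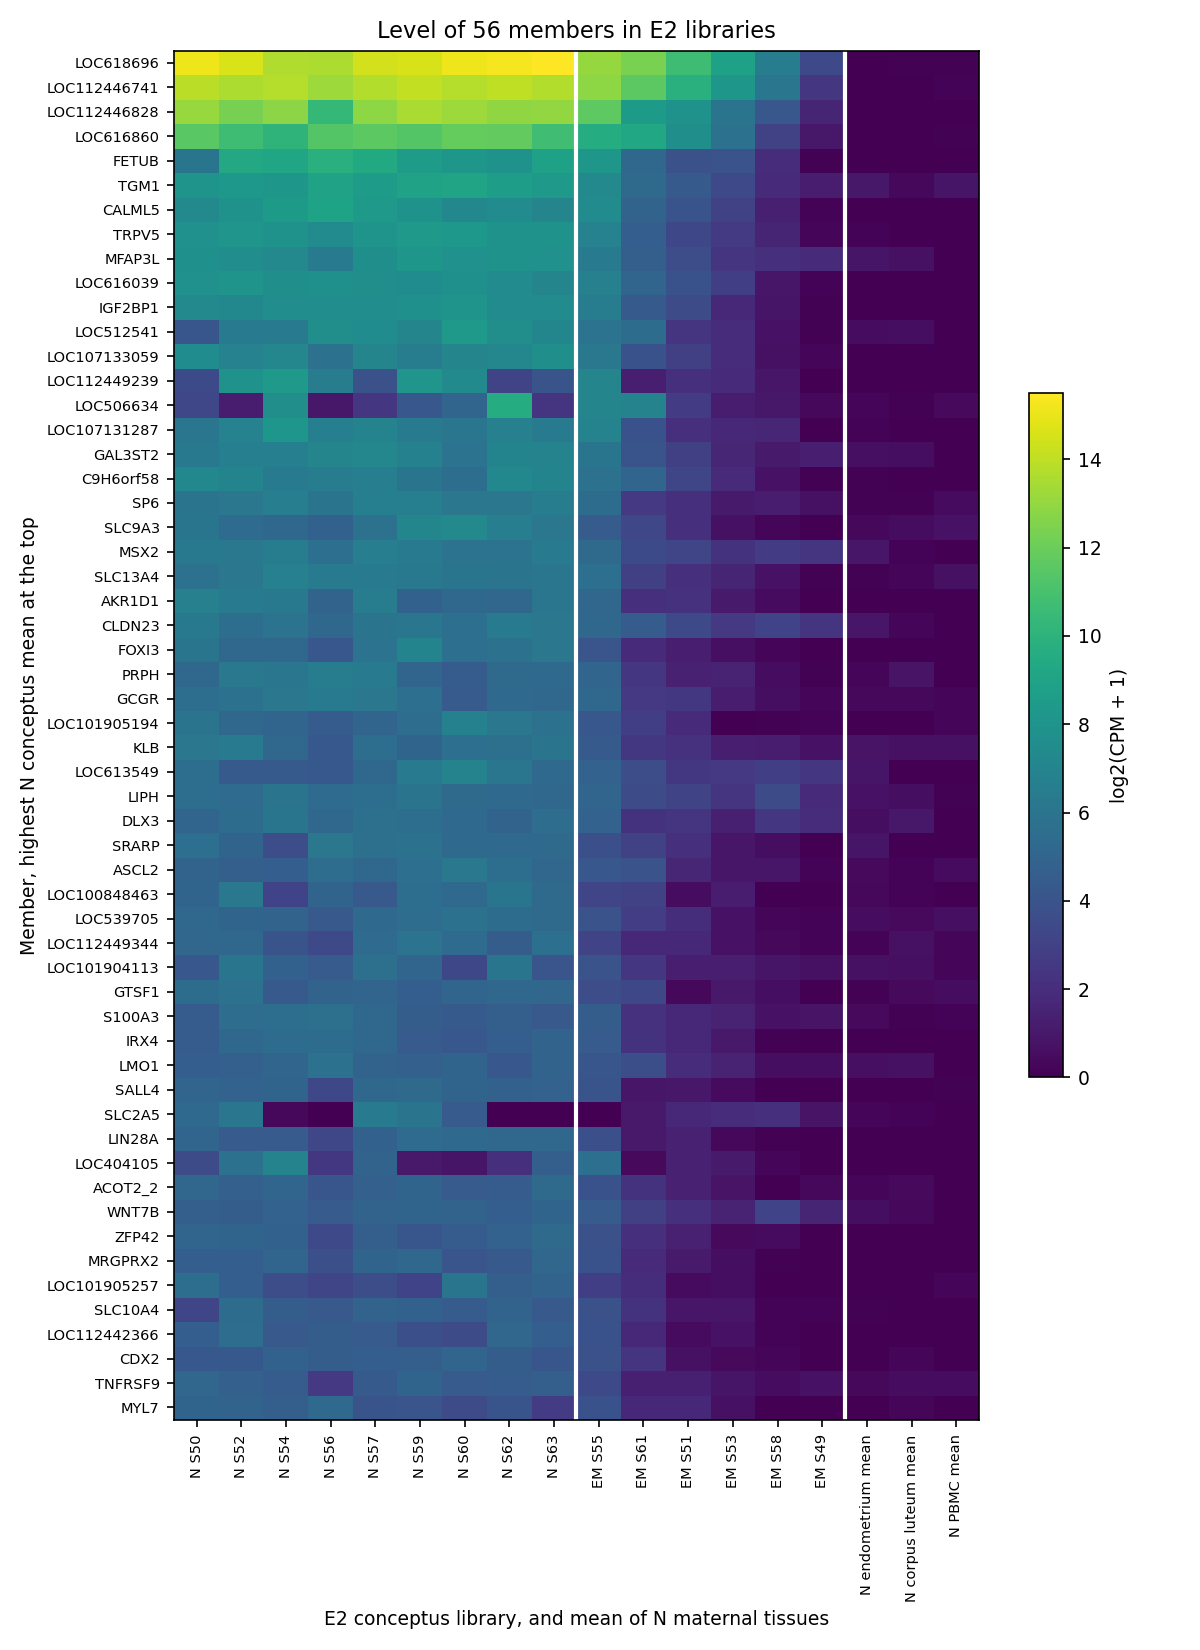
Level of 56 of the 57 genes (1 line each, highest N mean at the top) in each conceptus library of E2 and as the mean of 3 N maternal tissues, coloured by log2(CPM + 1). The EM columns, ordered by their summed level, darken together from S55, where the median gene is at 54.1% of its N mean, to S49, where it is at 0.0709%.

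In E2, edgeR's quasi-likelihood test called 54 of the 57 members lower in EM and 0 higher. Their log2 fold changes had a median of -3.40 and a range from -4.46 to -1.75. Since the N libraries of this contrast chose the members, no support is drawn from this count. Of all 15642 genes tested 31.8% were lower, 35.3% were higher and the median was 0.07. Of the 6245 genes with at least 20 CPM in N conceptuses 57.6% were lower, 9.67% were higher and the median was -0.70. For 26 members every EM library lay below every N library, which held for 7.43% of all genes and 14.9% of the genes with at least 20 CPM. By the EM libraries alone, 17 members would have passed the filter on low counts.

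LOC618696 ranged from 12179 to 46469 CPM in N, with a median of 25129 CPM, and from 9.89 to 8529 CPM in EM, with a median of 1048 CPM. The groups did not overlap, and the log2 fold change was -3.74 (SE 1.03, adjusted p = 0.0043). LOC112446741 had 9709 to 17120 CPM in N (median 13804) and 4.58 to 7589 CPM in EM (median 596), again without overlap. Its log2 fold change was -3.18 (SE 1.01, adjusted p = 0.0111). For LOC112446828 the N range of 1265 to 11783 CPM (median 7735) overlapped the EM range of 2.10 to 3176 CPM (median 150), because the N library S56 was low. LOC616860 had 1075 to 3673 CPM in N (median 2662) and 0.999 to 773 CPM in EM (median 134), and the groups stood apart.

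Among the annotated members with the highest N means, several are known from barrier and transport epithelia. TGM1, the transglutaminase that cross-links the cornified envelope of skin, had 257 to 538 CPM in N (median 378) and 1.37 to 155 CPM in EM (median 14.7). It did not overlap between groups, with a log2 fold change of -3.74 (SE 0.84, adjusted p = 0.00104). TRPV5, a calcium channel of transporting epithelia, had 179 to 314 CPM in N (median 250) and 0.210 to 117.4 CPM in EM (median 7.12), also without overlap. CALML5, a calmodulin-like skin protein, had 132 to 514 CPM in N (median 236) and reached 177 CPM in the EM library S55, so its ranges overlapped. FETUB, the secreted protease inhibitor fetuin B, had a wide N range of 65.3 to 932 CPM (median 477) and an EM range of 0.0526 to 294 CPM (median 13.9), which overlapped. IGF2BP1, a fetal RNA-binding protein, had 148 to 255 CPM in N (median 193) and 0.0526 to 91.3 CPM in EM (median 6.73), and the groups were apart. The remaining genes of this level were MFAP3L, LOC616039, LOC512541 (acyl-CoA thioesterase 4-like) and LOC107133059, all called lower, with log2 fold changes from -3.58 to -3.31.

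The transcription factors were lower in EM in the same way. FOXI3, a forkhead factor, had the lowest log2 fold change of the set, -4.46 (SE 0.97, adjusted p = 0.000813), with 17.4 to 125.5 CPM in N (median 54.7) and 0 to 15.8 CPM in EM (median 0.996). MSX2, a homeodomain factor, had 50.4 to 96.6 CPM in N (median 77.2) and 3.83 to 40.8 CPM in EM (median 7.12), without overlap. DLX3, needed for the placenta in the mouse, had 30.2 to 63.2 CPM in N (median 44.1) and 1.53 to 27.9 CPM in EM (median 3.92), also without overlap. ASCL2, likewise needed for the mouse placenta, had a log2 fold change of -3.16 (SE 0.81, adjusted p = 0.0026). CDX2, a factor of trophectoderm identity, had a median of 22.8 CPM in N and 0.448 CPM in EM, with a log2 fold change of -3.31 (SE 0.92, adjusted p = 0.00473). For ASCL2 and CDX2, too, the groups were apart.

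The 3 members on the epiblast list followed. SALL4, LIN28A and ZFP42 are associated with pluripotency in the mouse. SALL4 had 9.27 to 40.1 CPM in N (median 30.7) and 0 to 15.6 CPM in EM (median 0.638), with a log2 fold change of -3.70 (SE 1.03, adjusted p = 0.00479). LIN28A had 8.83 to 42.2 CPM in N (median 32.6) and 0 to 13.01 CPM in EM (median 0.665), and ZFP42 had 9.82 to 40.6 CPM in N (median 27.1) and 0 to 13.3 CPM in EM (median 0.996). For each of the 3 the highest EM library overlapped the lowest N library. LIN28A shares sequence with the member LOC539705, described as its pseudogene, so the counts of both are uncertain.

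Among the members called lower, the smallest falls belonged to genes of different kinds. WNT7B, a secreted Wnt ligand, had a log2 fold change of -2.34 (SE 0.46, adjusted p = 0.000367), with 21.2 to 31.2 CPM in N (median 27.8) and 1.83 to 20.6 CPM in EM (median 5.002). LIPH, a lipase that makes lysophosphatidic acid, was at -2.42 (SE 0.44, adjusted p = 0.000203), and CLDN23, of the claudins that form tight junctions, was at -2.49 (SE 0.44, adjusted p = 0.000143). For these 3 the groups did not overlap, and in the low library S58 they kept 29.2%, 22.7% and 12.5% of their N means. In EM endometrium their means were 0.290, 1.01 and 1.23 CPM. At the other end, next to FOXI3, stood SLC2A5, LOC112449344 (an endogenous retrovirus Env-like pseudogene), LOC101905257, SLC9A3 (a sodium-hydrogen exchanger of epithelia) and LOC100848463, with log2 fold changes from -4.41 to -4.12.

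The 3 members that did not pass the test in E2 had uneven levels among N conceptuses. LOC506634, described as like PINLYP, had 780 CPM in the N library S62, 205.5 CPM in S54 and 0.993 to 31.8 CPM in the others. LOC404105 ran from 0.841 to 120 CPM in N, and LOC112449239, trophoblast Kunitz domain protein 1-like, from 7.92 to 328 CPM. Their log2 fold changes were -1.75 (SE 1.56, adjusted p = 0.333), -2.01 (SE 1.37, adjusted p = 0.205) and -2.83 (SE 1.40, adjusted p = 0.084). LOC404105 was higher than its N mean in the EM library S55, at 179% of it, and LOC506634 reached 111.4% in S55 and 103.5% in S61. Without S55, LOC112449239 was called lower at -6.75 (adjusted p = 0.000374) and LOC404105 at -5.81 (adjusted p = 0.00174).

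Spread among normal conceptuses was larger for the members than for other expressed genes. The coefficient of variation (CV, SD as a percentage of the mean) over the 9 N libraries of E2 had a median of 36.3% over the 57 members, against 22.48% over the 6245 genes with at least 20 CPM in N. It ran from 13.7% for WNT7B to 219% for LOC506634, and 10 members were under 22.48%. The median is a description, since the N libraries chose the members. SLC2A5, the fructose transporter GLUT5, had a CV of 110%. It was at 0 CPM in S56, S62 and S63, at 0.234 CPM in S54, at 20.4 CPM in S60 and at 37.9 CPM in S50. In S59, S52 and S57 it had 61.005, 65.7 and 78.9 CPM. The member LOC107131287 carries the same description and ran from 65.7 to 281 CPM, highest in S54. SLC2A5 took 0% to 41.4% of the sum of both, and that sum had a CV of 45.8%, with 83.2 to 282 CPM in N and 0.736 to 123.4 CPM in EM. Counts of these 2 copies cannot be assigned with certainty, and SLC2A5 was not matched in E1, where the row of that symbol lay on a different chromosome than in ARS-UCD2.0. SLC2A5 had a log2 fold change of -4.41 (SE 1.58, adjusted p = 0.0209), and without the EM library S49 it missed the threshold (-4.07, adjusted p = 0.0513). LOC107131287, at -2.63 (SE 1.04, adjusted p = 0.0349), missed it without any of 4 EM libraries (S51, S53, S58 or S61) or of 7 N libraries (any but S62 and S63), with values from -2.52 to -2.16.

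**Figure D3:**
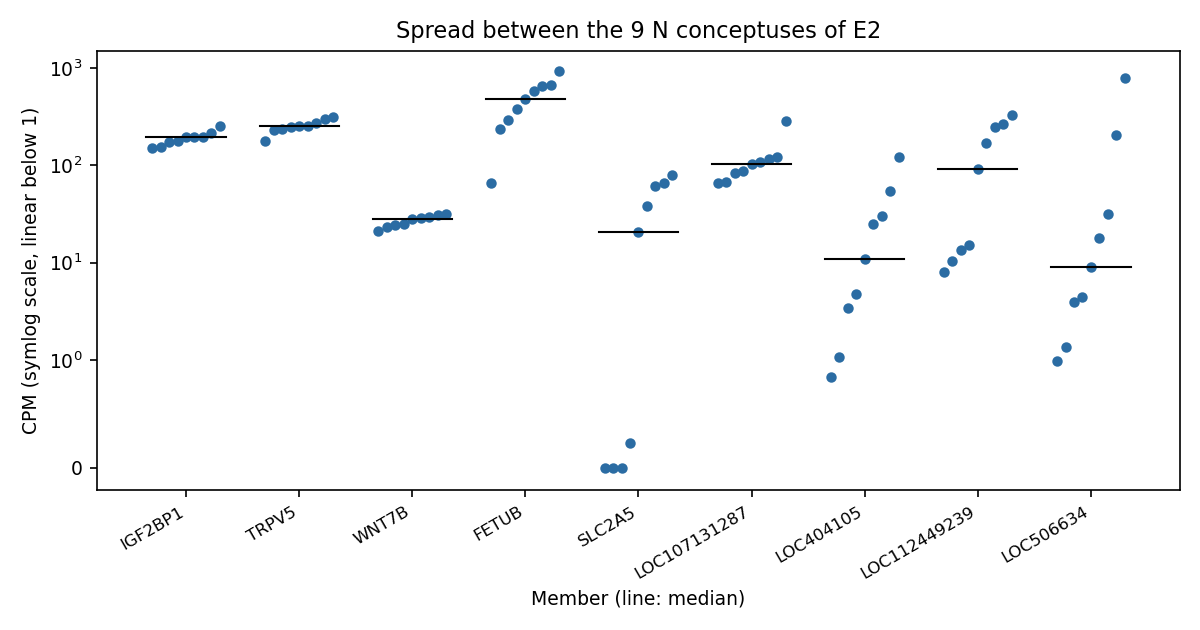
CPM of 9 members in the 9 N conceptuses of E2, 1 point per library in rising order and a line at the median, on a log axis that is linear below 1 CPM. WNT7B stays between 21.2 and 31.2 CPM, SLC2A5 is at 0 in 3 libraries, and LOC506634 runs from 0.993 to 780 CPM.

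The E1 conceptuses took no part in choosing the members. Here 33 of the 34 matched genes passed the filter on low counts, SP6 being at 0 in every E1 conceptus, and edgeR's quasi-likelihood test called 30 lower in EM and 0 higher. Of all 11211 genes tested 21.7% were lower and 25.4% higher, and of the 5365 with at least 20 CPM in N conceptuses 37.5% were lower and 10.5% higher. The median log2 fold change of the 33 was -1.44 (range -2.21 to -0.64), against -0.03 over all genes and -0.36 over those with at least 20 CPM. At an unadjusted p under 0.05 the count was 31. For 14 members the groups were fully apart, against 13.6% of all genes and 22% of those with at least 20 CPM. This separation is limited by depth, as 8 and 21 of the 34 genes had 0 counts in the EM libraries S4 and S5. Most members passed the filter through the N libraries, and by the EM libraries alone 12 passed, with all 12 lower and a median of -1.35.

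This count rested largely on 1 EM library, S3, and 2 of the other EM libraries were shallow. S4 held 224034 counts and S5 106785, so that 1 count was worth 4.46 and 9.36 CPM, whereas S3 held 6402817, S2 3827080 and the N libraries 6800123 to 14581706. Without S3, 13 of the 33 were called lower, with a median of -1.04, and without S4 and S5 together 27 were, with a median of -1.58. S3 also had 42129 CPM of red blood cell genes, against 2.56 to 40.2 CPM in N. The part of that in the result was not tested.

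The summed level of the 34 genes was 5837 ± 1469 CPM in N (SD, n = 8; range 3579 to 8192). It was 2906 CPM in S2, 713 CPM in S3, 3848 CPM in S4 and 730 CPM in S5. S4 lay within the N range and the other 3 below it. The median matched gene was at 51.1% of its N mean in S2, 13.5% in S3, 45.3% in S4 and 0% in S5, where 21 of the 34 had no count. Levels can be compared between genes in E1, where exon lengths were given. In RPKM, which is CPM per kilobase of exon, LOC616860 was the highest, at 3457 ± 1677 (SD, n = 8). CALML5 followed with 638 ± 210 RPKM and FETUB with 581 ± 221 RPKM, which did not differ beyond their spread. TGM1 had 193 ± 97.2 RPKM and IGF2BP1 97.4 ± 13.3 RPKM, while WNT7B had 1.92 RPKM.

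The genes with the smallest p in E1 were of different functions. KLB (UMD3.1 chromosome 6, 60173834 to 60206257) encodes the co-receptor for the hormones FGF19 and FGF21. It had 7.83 to 12.6 CPM in N (median 9.72) and 2.87, 1.87, 4.46 and 0 CPM in the EM libraries S2, S3, S4 and S5, all below N. In S4 and S5, KLB had 1 and 0 counts, too few to place those libraries below N. Its log2 fold change was -1.86 (SE 0.30, adjusted p = 0.000138), and in E2 it was -3.56 (SE 0.65, adjusted p = 0.000209).

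GTSF1 (UMD3.1 chromosome 5, 25730497 to 25744924), which acts in retrotransposon silencing in mouse germ cells, had 21.5 to 32.5 CPM in N (median 27.6) and 13.1, 4.84, 8.93 and 9.36 CPM in EM. LMO1 (UMD3.1 chromosome 15, 44880076 to 44917824), a LIM-domain protein, had 43.5 to 74.01 CPM in N (median 61.6) and 33.2, 8.59, 8.93 and 18.7 CPM in EM. S100A3 (UMD3.1 chromosome 3, 16880769 to 16884904), a calcium-binding protein, had 27.7 to 54.7 CPM in N (median 36.5) and 22.7, 6.87, 17.9 and 9.36 CPM in EM. In each of these 3 genes all EM libraries lay below all N libraries, though with only 2, 2 and 4 counts in S4 and 1, 2 and 1 in S5. Their log2 fold changes were -1.49 (SE 0.26, adjusted p = 0.000307), -1.58 (SE 0.29, adjusted p = 0.000472) and -1.34 (SE 0.29, adjusted p = 0.00145).

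TRPV5 (UMD3.1 chromosome 4, 107031452 to 107062131) had 73.3 to 136 CPM in N (median 99.9) and 50.2, 11.2, 66.95 and 18.7 CPM in EM, with a log2 fold change of -1.50 (SE 0.32, adjusted p = 0.00145). SALL4 (UMD3.1 chromosome 13, 80297262 to 80313158) had 10.002 to 20.03 CPM in N (median 12.9) and 7.05, 0.937, 4.46 and 0 CPM in EM, with -1.82 (SE 0.43, adjusted p = 0.00271). FOXI3 (UMD3.1 chromosome 11, 47479962 to 47484355) had 3.53 to 12.4 CPM in N (median 8.90) and 3.40, 0.625, 0 and 0 CPM in EM, with -2.21 (SE 0.53, adjusted p = 0.00318). FOXI3 had the lowest log2 fold change of the members in both experiments, but without S3 it missed the threshold in E1 (-1.65, adjusted p = 0.0527). For all 3 genes the groups did not overlap. In S4 and S5, however, SALL4 had 1 and 0 counts and FOXI3 0 and 0, too few to place those libraries below N. TRPV5 had 15 and 2 counts there.

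The other genes of the early lineages were lower in E1 too. CDX2 (UMD3.1 chromosome 12, 32317772 to 32322605) had 6.65 to 10.3 CPM in N (median 8.16) and 5.23, 1.09, 0 and 0 CPM in EM, with a log2 fold change of -1.44 (SE 0.39, adjusted p = 0.00697). ASCL2 (UMD3.1 chromosome 29, 49955760 to 49957635) had 37.4 to 160 CPM in N (median 87.9) and 39.5, 9.21, 40.2 and 0 CPM in EM, with an overlap and -1.76 (SE 0.49, adjusted p = 0.00864). DLX3 (UMD3.1 chromosome 19, 37294970 to 37300144) was within the N range of 30.7 to 54.5 CPM in S4, with 49.1 CPM, and its log2 fold change was -1.07 (SE 0.35, adjusted p = 0.0192). ZFP42 (UMD3.1 chromosome 27, 16630109 to 16630996) had -1.21 (SE 0.37, adjusted p = 0.013). For CDX2 every EM library was below N, but S4 and S5 had 0 counts of it. There 3 counts stand for 13.4 and 28.1 CPM, so these libraries cannot show whether CDX2 was below N. For the others 1 or 2 EM libraries were inside the N range. Without S3 none of the 4 passed, with -0.95 for CDX2 (adjusted p = 0.0924), -1.33 for ASCL2 (adjusted p = 0.0891), -0.56 for DLX3 (adjusted p = 0.183) and -0.78 for ZFP42 (adjusted p = 0.145).

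Among the most abundant genes, LOC616860 (UMD3.1 chromosome 18, 52120387 to 52124418) had 585 to 4188 CPM in N (median 3129) and 1595, 304, 1553 and 281 CPM in EM, with a log2 fold change of -1.44 (SE 0.52, adjusted p = 0.033). FETUB (UMD3.1 chromosome 1, 81151206 to 81166512) had 280 to 1332 CPM in N (median 783) and 258, 109.01, 696 and 197 CPM in EM, with -1.29 (SE 0.41, adjusted p = 0.018). TGM1 (UMD3.1 chromosome 10, 20735503 to 20750260) had 306 to 1117 CPM in N (median 426) and 169, 54.2, 353 and 74.9 CPM in EM, with -1.65 (SE 0.43, adjusted p = 0.0061). In these 3 the shallow library S4 lay inside the N range, and S2 did for LOC616860. LOC616860 missed the threshold without any of S3 (-1.18, adjusted p = 0.128), S5, S7, S10 or S12, and FETUB without S3 (-1.001, adjusted p = 0.0912) or S2. The 3 members that missed the threshold in E1 were TNFRSF9, with a log2 fold change of -0.64 (SE 0.47, adjusted p = 0.282), MFAP3L, with -1.15 (SE 0.51, adjusted p = 0.0761), and SLC9A3, with -1.16 (SE 0.62, adjusted p = 0.134). Without S2, MFAP3L passed at -2.19 (adjusted p = 0.0236). All 3 were called lower in E2. Whether the falls of E1 and E2 differed in size was not tested.

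**Figure D4:**
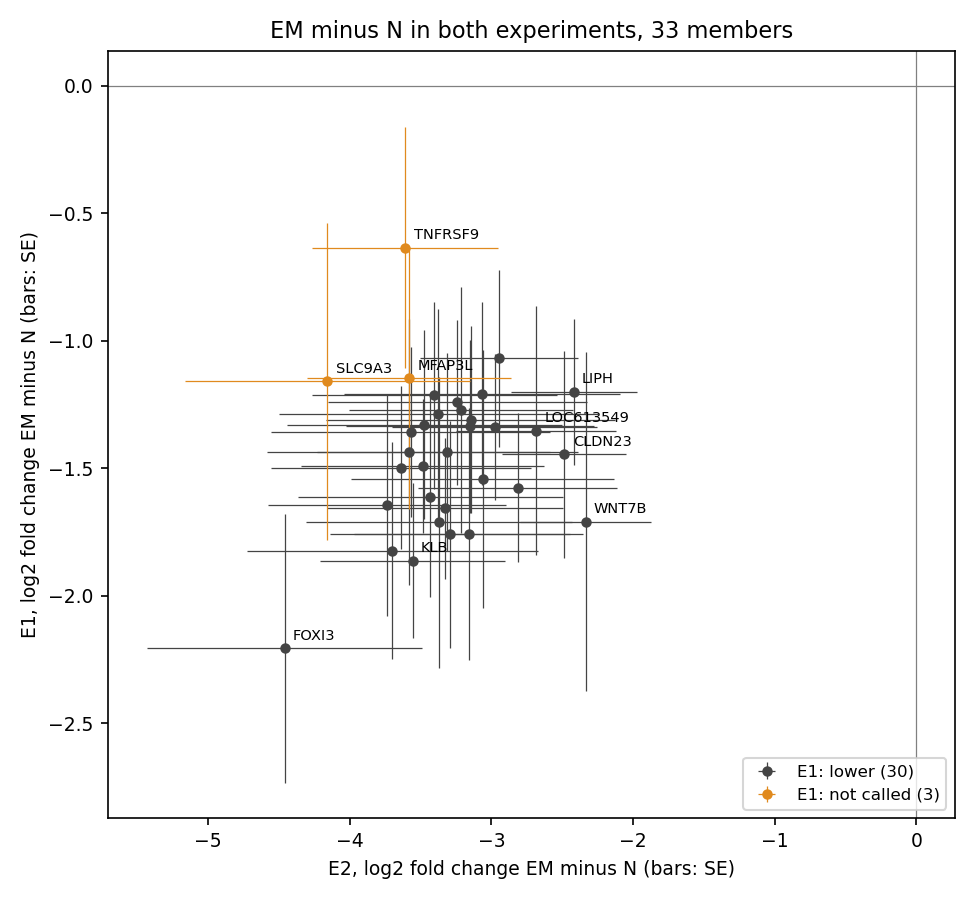
Log2 fold change (EM minus N) in E1 against that in E2 for the 33 members tested in both experiments, 1 point per gene with bars of 1 SE, and in orange the 3 not called in E1. All points are below 0 on both axes, from -2.21 to -0.64 in E1, and FOXI3 is the lowest in both.

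Maternal groups that the rule did not use kept low levels of most members. In E1, the mean was under 1 CPM for 33 of the 34 in N endometrium, the exception being TGM1 with 1.44 CPM, and for 32 in each of EM and NP endometrium. It was also under 1 CPM for 32 in PBMC of each of the N, EM and NP groups, where SLC13A4, a sulfate transporter chosen after its values were seen, had 4.40, 5.005 and 3.76 CPM. Between N conceptus and N endometrium of E1, 31 of the 34 members were tested and all 31 were higher in the conceptus, where 39.3% of all 13079 genes tested were higher and 47.7% lower. Most passed the filter only through their conceptus level, so the count is a description. In E2 the number under 1 CPM was 50 of 57 in EM endometrium, 51 in NP endometrium, 53 in EM corpus luteum and 56 in each of NP corpus luteum, EM PBMC and NP PBMC. The 7 members at or above 1 CPM in EM endometrium were SLC2A5 with a mean of 5.64 CPM, MSX2 with 2.76, TGM1 with 1.51, LOC107131287 with 1.32, CLDN23 with 1.23, LOC613549 with 1.03 and LIPH with 1.01 CPM.

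A few maternal libraries carried some members at a high level. In the EM endometrium library S80, SLC2A5 had 32.4 CPM, LOC107131287 7.77 CPM and MSX2 7.41 CPM. In the EM corpus luteum library S121, TGM1 had 19.7 CPM and LIPH 5.74 CPM. In the NP endometrium library S31 of E1, TGM1 had 50.8 CPM and LOC613549 20.6 CPM. The rise in S121 was not limited to TGM1 and LIPH. All members summed to 64.4 CPM there, against 5.83 to 10.3 CPM in the other EM corpus luteum libraries. S31 came from a cow labelled non-pregnant. Between EM conceptus and EM endometrium of E2, 24 of the 57 members passed the filter and edgeR called 22 higher in the conceptus, against 23.3% of 17832 genes, of which 18.5% were lower. As most of the 24 passed the filter through their conceptus level, this count too is a description. The log2 difference was 5.37 for TGM1 (SE 1.10, adjusted p = 0.0021), 5.24 for WNT7B (SE 0.75, adjusted p = 0.000248) and 2.85 for MSX2 (SE 0.70, adjusted p = 0.00634). The 2 that were not called were SLC2A5, with -1.01 (SE 1.44, adjusted p = 0.597), and LOC107131287, with 4.93 (SE 1.92, adjusted p = 0.0547). Without EM replicates S49 and S58 together, 45 passed and 43 were called higher.

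Other conceptus genes of 4 lists were more often lower than higher in EM, the lists being chosen with results of these data known and counted here without the members they hold. Of all genes tested, 31.8% were lower and 35.3% higher in E2, and 21.7% lower and 25.4% higher in E1. Of genes with at least 20 CPM in N conceptuses, 57.6% were lower and 9.67% higher in E2, and 37.5% lower and 10.5% higher in E1. Of 19 trophectoderm transcription factors tested in E2, 14 were lower in EM and 5 (ELF5, EOMES, ELF3, GRHL2 and KLF5) were higher, and the median was -2.27 on the log2 scale. In E1, 11 of 18 were lower, 2 (GRHL2 and KLF5) were higher and the median was -1.08. The list of trophoblast products mixes secreted proteins with keratins, enzymes and other genes. Of these products 12 of 15 were lower and 0 higher in E2 (median -3.12). In E1, 7 of 12 were lower (median -1.38) and 1, the protease CTSL, was higher, at 1.15 (SE 0.23, adjusted p = 0.00101), where in E2 it was lower at -2.73 (SE 0.70, adjusted p = 0.0027). CTSL had a mean of 267 CPM in N endometrium and 110 CPM in N conceptuses of E1, against 3.08 and 545 CPM in E2. Whether the rows of both experiments count the same gene was not tested. The genes named here as higher were chosen after their values were seen. Of epiblast genes 5 of 7 were lower in E2 (median -3.86), and of only 2 tested in E1, 1 was lower. Of genes of hypoblast and yolk sac endoderm, 13 of 25 were lower and 5 higher in E2, and 11 of 22 were lower and 3 higher in E1. The E2 count of lower genes is near the share among genes with at least 20 CPM. Interferon tau genes, which the rule left out by name, summed to 8288 to 14995 CPM in N conceptuses of E2. In EM they summed to 7151 CPM in S55, 1732 CPM in S61, 657 CPM in S51, 247 CPM in S53, 49.2 CPM in S58 and 3.68 CPM in S49. This is the order of the EM libraries by the summed members.

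Markers of leukocytes and of endometrial epithelium rose in the EM conceptuses, whereas lists of stromal and luteal cells were mixed. Of all genes tested, 35.3% were higher and 31.8% lower in E2, and 25.4% higher and 21.7% lower in E1. All 19 leukocyte genes tested in E2 were higher in EM (median 6.30 on the log2 scale), and so were all 16 tested in E1 (median 8.92). Their sum was 8.63 to 55.1 CPM in N of E2 and 618 to 5482 CPM in EM. In E1 it was 18.2 to 132 CPM in N and 1433 to 2465 CPM in EM. By library it was 914.5 CPM in S49, 2911 in S51, 1089 in S53, 708 in S55, 5482 in S58 and 618 in S61. The lowest leukocyte sums were thus in S55 and S61, highest in members, and the highest was in S58, among the lowest in members. S49, the lowest in members, lay between. A relation within EM was not tested. In N of E2, 10 of the 19 leukocyte genes were at 0 in at least 1 library, with MS4A1, the B cell antigen CD20, at 0 in 7 of 9, and 0 genes were at 0 in all. PTPRC, the leukocyte common antigen CD45, had a mean of 0.989 CPM in N and 196 CPM in EM. Of 11 genes of endometrial epithelium tested in E2, 10 were higher in EM and 1, FOXL2, was lower. They summed to 28.9 to 1832 CPM in N and to 5758 to 14030 CPM in EM. In E1, 6 of 6 were higher, with sums of 27.6 to 210.4 CPM in N and 805 to 4316 CPM in EM. Of 9 genes of endometrial stroma tested in E2, 5 were higher and 2 (FN1 and SPARC, named like MS4A1 after their values were seen) lower, and their sum, mostly FN1, was lower in EM (263 to 2262 CPM) than in N (2698 to 7347 CPM). In E1, 7 of 10 were higher and 2 lower. Genes of luteal cells summed to 2417 CPM in S61, to 20.3 to 80.4 CPM in the other 5 EM libraries and to 107.8 to 477 CPM in N. In E1 they summed to 45.6 to 148 CPM in EM and 141 to 394 CPM in N, with 2 of 3 lower. Of red blood cell genes, 2 of 3 tested in E2 and 2 of 2 in E1 were higher in EM. They summed in E2 to 9.16 to 450 CPM in EM and 1.56 to 25.1 CPM in N, with an overlap. In the library with the lowest members, S49, the epithelial genes summed to 6754 CPM and the leukocyte genes to 914.5 CPM. The part of these cells in the falls of the members was not tested.

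**Figure D5:**
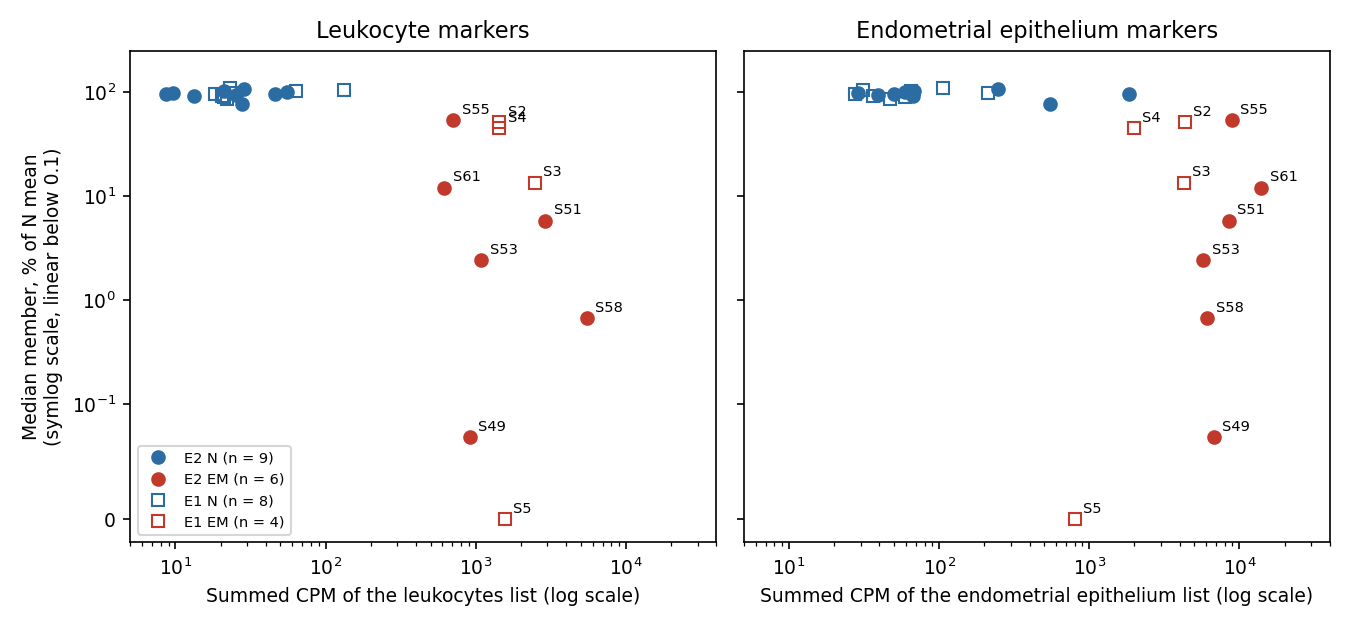
Median member as a percentage of its N mean, on an axis that is linear below 0.1, against the summed CPM of the leukocyte list (left) and of the endometrial epithelium list (right) on a log axis, 1 point per conceptus library (E2 filled circles, E1 open squares, N blue, EM red). The EM libraries of E2 have 618 to 5482 CPM of leukocyte genes against 8.63 to 55.1 CPM in N. Among them S55 and S61, highest in members, have the lowest leukocyte sums, and S58, among the lowest in members, has the highest. The epithelial sums are 8906, 14030 and 8525 CPM in S55, S61 and S51, and 5758, 6119 and 6754 CPM in S53, S58 and S49. A relation within EM was not tested.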

How the data were processed

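RNA of conceptus, endometrium, corpus luteum and PBMC was sequenced after stranded poly(A) library preparation, with 75 bp single reads in E2 and 100 bp paired reads in E1. The authors deposited whole-number read counts per gene, on ARS-UCD1.2 in E2 (35186 gene rows) and UMD3.1 in E1 (24616). The sources used here do not name the counting program. In E2, 28 repeated names were dropped. Of 129 samples, 2 could not be mapped to a group, and 2 columns with values of single samples were left aside.

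CPM was computed from the deposited counts and column totals. E2 members were matched to E1 by symbol, and to RefSeq (ARS-UCD2.0) for names and gene order only. Conceptus libraries held 10532188 to 24482117 counts in E2 and 106785 to 14581706 in E1, and their number and depth limit the precision. No 2 libraries of a group agreed within sampling noise. Groups came from the sample labels, except for a column of N endometrium in E2. Its name, S77, is also the title of an EM sample, so it was placed by the group heading it was deposited under. It was among the libraries that chose the members. The paper describes a conceptus collected from each cow, in numbers that match the E2 conceptus groups. For the other libraries nothing states that replicates are independent beyond being separate samples. The p-values measure the spread between these samples.

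Each contrast was fitted over its own 2 groups and all genes with edgeR 4.0.16 in R 4.3.3 (TMM factors, filterByExpr with a minimum count of 10, quasi-likelihood test, Benjamini-Hochberg adjustment, threshold 0.05). The SE of a log2 fold change was derived from its F value. Tables were handled with pandas 2.3.3. The script was tested on simulated counts: in E1 EM against N, 82% of genes changed by a log2 of 2 were recovered, and in E2 76%. Alternatives were RLE factors, DESeq2 1.42.0, robust fits, other filters, other limits of the rule, and each library left out in turn.

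Members and lists were chosen with earlier results of these data known. Genes named in the text were the 15 members highest in N of E2, the 8 with the smallest p in E1, the 6 lowest and 6 highest log2 fold changes in E2, members on a cell type list, and the 3 nearest each limit. Of these, 1 member is not reported here. Others are marked as chosen after their values were seen.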

Additional observations from a re-analysis of the deposited data

Results flagged for a closer look

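Dixon's criterion was applied to the summed level and the named members in each conceptus group of 4 to 10 libraries. It marked 1 library as far from the rest in 14 combinations of gene and group (10.9% of those tested). Chance gives about 1 in 20 for independent values, but the members of a library moved together. The share is therefore a description. Among N conceptuses of E2, S56 was the low library in 4 genes: LOC112446828 (1265 CPM), SALL4 (9.27 CPM), LIN28A (8.83 CPM) and TNFRSF9 (5.08 CPM). S56 was also the N library with the lowest sum of the members. LOC512541 was low in the N library S50 (16.9 CPM) and LOC107131287 was high in S54 (281 CPM). Among EM conceptuses of E2, S55 was far above the other 5 in 6 genes. There LOC112449239 had 134 CPM, SALL4 15.6 CPM, LOC404105 49.8 CPM, DLX3 27.9 CPM, LIN28A 13.01 CPM and TNFRSF9 9.49 CPM. In N conceptuses of E1, FETUB was low in S1 (280 CPM) and LMO1 was low in S7 (43.5 CPM).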

How the results depend on the processing

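The count of members lower in EM stayed within 1.5 times its main value under RLE factors, DESeq2 and robust fits in both experiments. In E1, where the main count was 30 of 33 tested, it was 1 of 2 when each library had to hold 10 counts of a gene, 13 of 15 with the limit in N conceptuses raised to 50 CPM and 13 of 13 with maternal means under 0.2 CPM. Leaving out 1 library at a time gave 13 to 29, the lowest without S3. In E2, where it was 54 of 57, the same settings gave 17 of 17, 26 of 28 and 25 of 27, and leaving out 1 library gave 53 to 56. These 3 settings test fewer members by construction. Members were also chosen in E1 instead, by the limits in conceptus, endometrium and PBMC, as E1 had no corpus luteum libraries. Of these, 36 of 37 were lower in E2, and 45 of 52 in E1, whose N libraries then made the choice. For members higher in EM conceptus than in EM endometrium, 22 in the main fit, a filter of at least 1 count gave 54 of 57, and leaving out S49 and S58 together, chosen after seeing the data, gave 43 of 45. RLE factors moved the all-gene median on the log2 scale by 0.11 in E1 and 0.10 in E2. Of the single-gene values under the alternatives, 405 of E1 and 836 of E2 kept direction and call, 27 and 15 lost the call, 2 and 2 gained it, and none changed direction. No paired analysis was possible because the groups share no replicate numbers.

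The E1 result is limited by the depth of S4 and S5, where a member with 0 counts can stand for up to 13.4 and 28.1 CPM, the value of 3 counts. These limits cover counting error only. The E2 count is not independent of the choice of members. Markers of maternal cells were higher in EM conceptuses, and the counts of near-identical copies are uncertain.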

Other observations

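The members' levels in N conceptuses were ordered alike only in part between the experiments, with a Spearman coefficient of 0.42 across the 34 matched genes, which are not independent replicates and were mapped to different assemblies. Of these genes, 20 reached 20 CPM in N conceptuses of E1, and 18 also met the limits in endometrium and PBMC there. E1 had no corpus luteum libraries, so that limit could not be applied. MFAP3L had 81.3 to 299.5 CPM in N conceptuses of E2 and 2.97 to 7.81 CPM in those of E1. ASCL2 ran the other way, with 23.8 to 73.8 CPM in E2 and 37.4 to 160 CPM in E1. The tables were made separately, so a difference of a gene between experiments was not tested.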
